A study of Homo sapiens with 4 samples.

Results

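In T24 cells, 10 genes of the transforming growth factor beta (TGF-beta) pathway were followed: the ligands TGFB1, TGFB2 and TGFB3, the receptors TGFBR1 and TGFBR2, the signal transducers SMAD2, SMAD3 and SMAD4, and the feedback genes SMAD7 and SKIL. They were chosen by gene name, and each matched 1 of the 60623 genes in the deposited table. All 10 passed the filter on low counts and are among the 14862 genes tested. T24 is an established line from a human bladder carcinoma, grown in RPMI with 10% fetal calf serum. The groups were control cells (2 libraries of total RNA) and cells overexpressing CBX7 (2 libraries), a chromodomain protein of Polycomb repressive complex 1. The study's overexpression construct held full-length CBX7 in a FLAG-tag vector, and the labels name no other allele, agent or time. Nothing says that the 2 libraries of a group came from separate cultures, so p-values measure only the spread between these libraries, which may be technical.

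TGF-beta ligands are secreted as latent dimers. Once activated, they bind the type II receptor TGFBR2, which recruits and phosphorylates the type I receptor TGFBR1. The type I receptor phosphorylates SMAD2 and SMAD3, which join SMAD4 and enter the nucleus. SMAD7 blocks the receptor and SKIL (SnoN) represses the SMAD complex, and because both are themselves transcribed in answer to TGF-beta, their transcripts serve as a readout of the pathway. In epithelial cells and early carcinomas the pathway holds back growth, and in later carcinomas it is known for its part in invasion and the epithelial-mesenchymal transition.

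The 3 ligands are products of related genes, and a read can be assigned only if their sequences differ. The last 45 coding bases of each, from exon 7 of 7 in GENCODE 29 (GRCh38), are shown 5′ to 3′ on the coding strand because they lie in the conserved mature part of the protein. Capitals mark the 29 of 45 bases that all 3 genes share. TGFB1 is shown from chr19:41331055-41331099 (minus strand), TGFB2 from chr1:218441315-218441359 (plus strand) and TGFB3 from chr14:75959190-75959234 (minus strand).
TGFB1: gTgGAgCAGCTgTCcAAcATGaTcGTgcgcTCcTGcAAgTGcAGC
TGFB2: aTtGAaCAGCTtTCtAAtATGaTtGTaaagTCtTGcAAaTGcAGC
TGFB3: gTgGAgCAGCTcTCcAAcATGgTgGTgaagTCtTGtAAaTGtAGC
Even in this stretch the shared letters are broken up by gene-specific bases. Over the whole coding sequences the longest run of identical bases was 17 between TGFB1 and TGFB2, 14 between TGFB1 and TGFB3 and 13 between TGFB2 and TGFB3. SMAD2 and SMAD3 shared a run of 23 bases.

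SMAD3 and SMAD4 bind the letters CAGAC and, on the other strand, GTCTG. RefSeq promoters of 300 bases around each start (GRCh38.p14) were searched for these letters on both strands, and 45.3% of 35116 promoters held at least 1 match. The first of the 3 promoters listed for SMAD7 held 2 matches, at -217 to -213 and -128 to -124 from its start (chr18:48951165-48951194 and chr18:48951076-48951105, minus strand). Another SMAD7 promoter held 1 and the last held none. The SKIL promoter held 1, at -107 to -103 (chr3:170357596-170357625, plus strand). The windows are shown 5′ to 3′ on the gene's strand because these 2 genes are the readout, with the matched letters in capitals.
SMAD7 (first match): gccggacgccccCAGACctctgaggttcga
SMAD7 (second match): ttcttattttgcCAGACgtctcatgcgggg
SKIL: gacggcggcggcGTCTGcgggaagctgtgt
The palindrome GTCTAGAC, which does not hold CAGAC or GTCTG, stood in 71 of all promoters (0.202%) and in none of the promoters of the 10 genes. Of the other genes, TGFB2 had a match in its 1 promoter and TGFB3 in 1 of 2. TGFBR1 had a match in 4 of 8 promoters and SMAD3 in 3 of 5. TGFB1 and SMAD4 (1 promoter each) and TGFBR2 and SMAD2 (2 each) had none. The share of 45.3% is per promoter, so genes with more promoters listed had more places for a match. A match is a description of letters, and binding was not measured.

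The libraries held 20800910 to 25135488 summed expected counts each. CBX7 itself was measured at 261.4 and 203.3 expected counts in the control libraries against 42852 and 35641 in the CBX7 libraries (log2 fold change 7.35, standard error 0.18, edgeR adjusted p = 0.000584), so each library matched its label. Keratins of simple epithelium were abundant (KRT7, KRT8 and KRT18 between 853 and 1465 TPM, the relative level per transcript length), as was the mesenchymal gene VIM (2206 to 2757 TPM). Of the urothelial markers, KRT5 was listed at 0 in every library, the 4 uroplakins measured reached at most 0.27 TPM and CDH1 (E-cadherin) at most 0.03 TPM. Others of that list were present, PPARG at 22.76 to 25.89 TPM and KRT19 at 7.64 and 6.64 TPM in control cells against 17.31 and 15.07 TPM in CBX7 cells, while EPCAM (0.58 to 1.78 TPM) and GATA3 (0.17 to 0.82 TPM) were low. On the log2 CPM scale KRT19 differed by 1.35 and GATA3 by 2.28 between CBX7 and control cells (adjusted p = 0.352 and 0.602 by edgeR), and their part in the results was not tested. GATA3 was counted 3 and 4 times in control cells against 14 and 22 times in CBX7 cells, and its groups overlapped in TPM. The leukocyte genes PTPRC and CD3E did not exceed 0.06 TPM, with CD14 at 0.79 to 1.64 TPM, the endothelial genes PECAM1, VWF and CDH5 did not exceed 0.30 TPM, and the fibroblast genes DCN, LUM and PDGFRB did not exceed 0.91 TPM. CBX7 replicate 1 stood apart from the other libraries in how its counts varied with transcript length. Over the 11077 genes that averaged 100 counts or more, Spearman's rho between length and its log2 ratio to control replicate 1 was -0.62, against 0.04 for CBX7 replicate 2 over control replicate 2 and -0.49 for control replicate 1 over control replicate 2. These correlations run across genes of the same libraries, which are not replicates.

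In TPM, T24 cells carried 1 of the 3 ligands well above the other two (gene coordinates here and below are those of GENCODE 29, GRCh38). TGFB1 (ENSG00000105329, chr19:41301587-41353911, minus strand) had 42.29 and 42.50 TPM in control replicates 1 and 2 and 48.67 and 49.46 TPM in CBX7 replicates 1 and 2, a mean above that of 79.8% of the tested genes. TGFB2 (ENSG00000092969, chr1:218346235-218444619, plus strand) had 0.74 and 0.60 TPM in control cells and 0.70 and 1.25 TPM in CBX7 cells. TGFB3 (ENSG00000119699, chr14:75958099-75982991, minus strand) had 0.72 and 1.10 TPM in control cells and 1.94 and 0.79 TPM in CBX7 cells. The minor ligands overlapped each other in both groups and stood above only 10.3% (TGFB2) and 13.5% (TGFB3) of the tested genes. TGFB1 made up 96.7% and 96.2% of the summed ligand TPM in the control libraries and 94.9% and 96.0% in the CBX7 libraries.

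**Figure D1:**
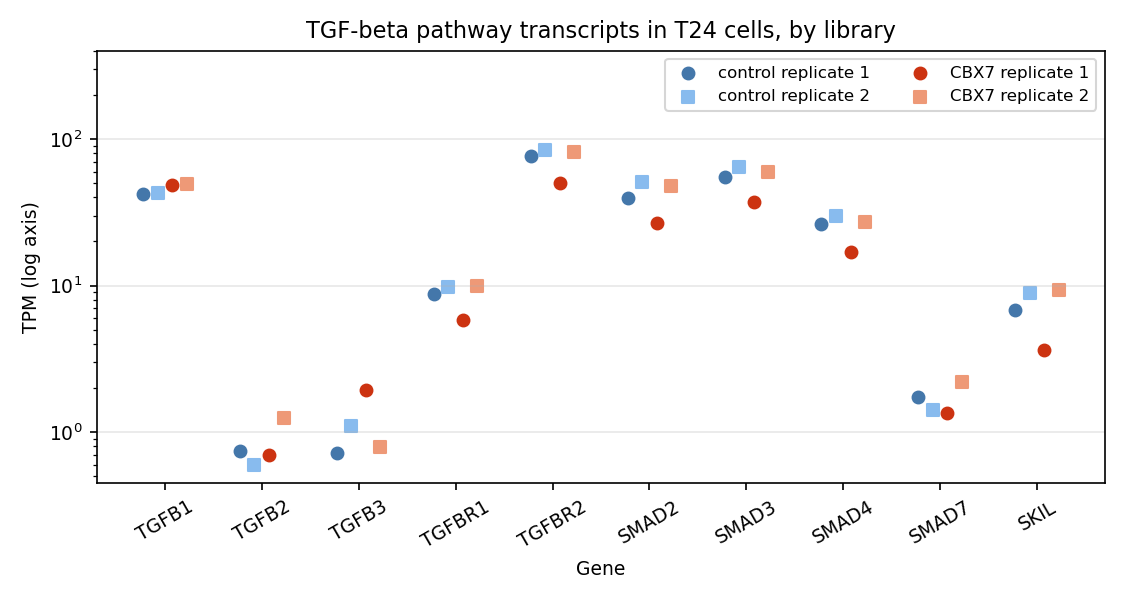
Level of each of the 10 genes (TPM, log axis) in the 4 libraries, with 1 point per library. TGFBR2, SMAD3, SMAD2, TGFB1 and SMAD4 lie at 16.97 TPM or higher in every library, and SMAD7, TGFB3 and TGFB2 lie at 2.20 TPM or lower. CBX7 replicate 1 is the lowest library for both receptors, SMAD2, SMAD3, SMAD4, SMAD7 and SKIL.

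The type II receptor was the most abundant of the 10 transcripts. TGFBR2 (ENSG00000163513, chr3:30606502-30694142, plus strand) had 75.98 and 83.54 TPM in control cells and 49.90 and 80.94 TPM in CBX7 cells. TGFBR1 (ENSG00000106799, chr9:99104038-99154192, plus strand), the type I receptor, had 8.70 and 9.76 TPM in control cells and 5.86 and 9.92 TPM in CBX7 cells. The ratio of TGFBR2 to TGFBR1 stayed between 8.16 and 8.73 in the 4 libraries. Of the 3 other receptors and co-receptors listed, endoglin (ENG) had 68.00 to 76.31 TPM, within the range of TGFBR2, betaglycan (TGFBR3) had 0.84 to 1.28 TPM, and the endothelial type I receptor ACVRL1 had at most 0.06 TPM and was not tested.

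Among the transducers, SMAD3 (ENSG00000166949, chr15:67063763-67195195, plus strand) had 55.09 and 64.45 TPM in control cells and 36.90 and 59.39 TPM in CBX7 cells. SMAD2 (ENSG00000175387, chr18:47808957-47931146, minus strand) had 39.74 and 51.26 TPM in control cells and 26.74 and 47.65 TPM in CBX7 cells. SMAD4 (ENSG00000141646, chr18:51028394-51085045, plus strand), the partner of all receptor-activated SMADs, had 26.28 and 29.97 TPM in control cells and 16.97 and 27.19 TPM in CBX7 cells. All 3 were thus present in every library, and within each library SMAD3 exceeded SMAD2 by a ratio of 1.25 to 1.39. The SMADs of the bone morphogenetic protein (BMP) branch were lower, with SMAD1 at 10.17 to 18.38 TPM, and the inhibitory SMAD6 reached at most 0.30 TPM.

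The feedback genes were the lower part of the intracellular set. SKIL (ENSG00000136603, chr3:170357678-170396835, plus strand) had 6.86 and 8.83 TPM in control cells and 3.63 and 9.31 TPM in CBX7 cells. SMAD7 (ENSG00000101665, chr18:48919853-48952052, minus strand) had 1.74 and 1.41 TPM in control cells and 1.36 and 2.20 TPM in CBX7 cells. SKIL exceeded SMAD7 in every library, by a ratio of 2.67 to 6.26, and SMAD7 stood above 17.8% of the tested genes. In control cells the full order of mean TPM was TGFBR2, SMAD3, SMAD2, TGFB1, SMAD4, TGFBR1, SKIL, SMAD7, TGFB3 and TGFB2. Neighbours whose libraries overlapped were SMAD2 and TGFB1, TGFBR1 and SKIL, and TGFB3 and TGFB2. In CBX7 cells TGFB1 moved to the second place by its mean, but neighbours overlapped all along the order from TGFB1 through SMAD3 and SMAD2 to SMAD4, between TGFBR1 and SKIL, and from SMAD7 through TGFB3 to TGFB2.

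These levels rest on the transcript length behind each deposited TPM, which was computed back from the count and the TPM of each library and expressed as a percentage of the deposited gene length, with the median tested gene set to 100. For SMAD2, whose deposited length is 12075 bases, the implied length was 23.1% and 19.8% in the control libraries against 25.0% and 19.2% in the CBX7 libraries. Had every count been divided by the deposited length, SMAD2 would have been at 9.19, 10.2, 6.68 and 9.15 TPM and would have come after SMAD4 and TGFBR1 in the order of means. Among the ligands, TGFB2 had an implied length of 106.5% and 103.0% in control cells against 68.5% and 57.6% in CBX7 cells, and TGFB3 had 100.1% in CBX7 replicate 2 against 63.5% to 74.5% in the other libraries. So the highest TGFB2 TPM, in CBX7 replicate 2, did not come with the highest count, which was 47.42 there against 58.92 in control replicate 1. The implied length of TGFB1 stayed between 109.3% and 113.8%.

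**Figure D2:**
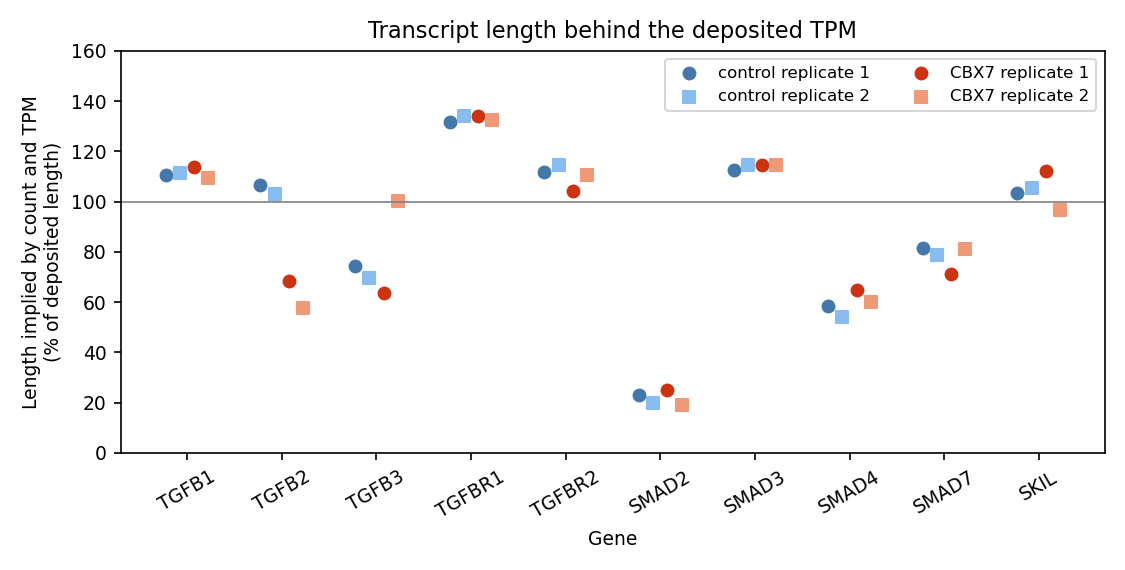
Transcript length implied by the count and TPM of each library, as a percentage of the deposited gene length (linear axis from 0, median tested gene at 100), with 1 point per library. SMAD2 lies between 19.2% and 25.0% in all libraries, and TGFB2 and TGFB3 differ between libraries.

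CBX7 and control cells were then compared on the CPM scale (counts per library total, TMM-normalized), which sets 1 gene against itself across libraries. None of the 10 genes passed an adjusted p of 0.05 in the quasi-likelihood test of edgeR (Benjamini-Hochberg adjustment over all genes tested), and the adjusted p was 0.951 for each. Of all 14862 genes, 3 passed (0.0202%). At an unadjusted p under 0.05 the count was 0 of the 10 genes, against 705 of all genes (4.74%), and it was also 0 of 10 for an adjusted p under 0.05 with DESeq2's Wald test, against 67 of all genes (0.451%). For 2 of the 10 genes, TGFB1 and TGFB3, the 2 CBX7 values were both higher than the 2 control values, and for 2, TGFBR2 and SMAD2, both were lower. The same held for 15.4% (above) and 14.8% (below) of all genes, so these counts are near the background. In an exact two-sided permutation test, 2 libraries against 2 cannot give a p under 0.333. In bulk libraries, fewer cells that make a transcript and less of it per cell cannot be told apart.

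For the ligands, TGFB1 had 80.5 and 77.7 CPM in control cells and 112.8 and 87.7 CPM in CBX7 cells. Both CBX7 libraries were above both control libraries, replicate 1 more so. The log2 fold change was 0.34 with a standard error of 0.17 and a 95% interval from -0.07 to 0.76. TGFB3 was counted 20 and 24 times in the control libraries and 55 and 26 times in the CBX7 libraries, or 0.838, 1.14, 2.28 and 1.16 CPM in that order. Its groups were separated on this scale by the small step between control replicate 2 and CBX7 replicate 2, and the log2 fold change of 0.80 (standard error 0.44) had an interval from -0.29 to 1.9. In TPM, as given above, the groups overlapped. TGFB2 had 2.47 and 1.86 CPM in control cells and 1.78 and 2.10 CPM in CBX7 cells, which overlap, and a log2 fold change of -0.16 (standard error 0.29). Genes on the opposite strand overlap TGFB1 (CCDC97, TMEM91 and HNRNPUL1, the last with 6193 to 7148 expected counts, more than TGFB1 itself) and TGFB3 (IFT43, with 208 to 383 expected counts, more than TGFB3 itself), and it is not stated whether reads were counted by strand, so their reads and those of the ligands may not be told apart. On the strand of TGFB2 lies TGFB2-OT1, which overlaps it and had 6.08 and 3.26 expected counts in the control libraries against 21.10 and 7.58 in the CBX7 libraries, beside 58.92 and 38.74 against 42.90 and 47.42 for TGFB2. The log2 ratio of the mean CPM was -0.16 for TGFB2 alone and 0.11 for the sum of both (a value chosen after seeing the data, with no test), and the groups overlapped in each.

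The receptors had wide intervals around 0. TGFBR2 had 242.7 and 260.3 CPM in control cells and 175.4 and 240.6 CPM in CBX7 cells. Both CBX7 libraries were lower, but replicate 2 came close to control replicate 1. The log2 fold change was -0.27 (standard error 0.18, interval from -0.73 to 0.18). TGFBR1 had 42.2 and 45.9 CPM in control cells and 34.2 and 45.5 CPM in CBX7 cells. Here CBX7 replicate 2 lay between the control libraries and only replicate 1 was below them, with a log2 fold change of -0.14 (standard error 0.18, interval from -0.59 to 0.30).

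The transducers showed the same arrangement. SMAD3 had 248.1 and 281.4 CPM in control cells and 200.4 and 256.6 CPM in CBX7 cells, and SMAD4 had 80.9 and 81.5 CPM against 68.6 and 81.1 CPM. In both genes the groups overlapped, with CBX7 replicate 1 the lowest library. The log2 fold changes were -0.21 for SMAD3 (standard error 0.17) and -0.12 for SMAD4 (standard error 0.14). SMAD2 had 68.8 and 72.4 CPM in control cells and 59.1 and 64.5 CPM in CBX7 cells. Its groups did not overlap on this scale, and its log2 fold change was -0.19 (standard error 0.13, interval from -0.52 to 0.14).

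The feedback genes, which read out SMAD activity, pointed in different directions by library. SMAD7 was counted 93 and 61 times in the control libraries and 76 and 103 times in the CBX7 libraries, or 3.90, 2.91, 3.15 and 4.61 CPM in that order. CBX7 replicate 1 lay between the control libraries and replicate 2 above both. The log2 fold change was 0.18 with a standard error of 0.29 and an interval from -0.55 to 0.91. SKIL had 31.5 and 39.4 CPM in control cells and 21.4 and 37.6 CPM in CBX7 cells. CBX7 replicate 1 was the lowest library and replicate 2 lay between the control libraries, which gave a log2 fold change of -0.27 (standard error 0.29, interval from -0.98 to 0.45). A change of either readout with CBX7 was not detectable in these libraries.

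**Figure D3:**
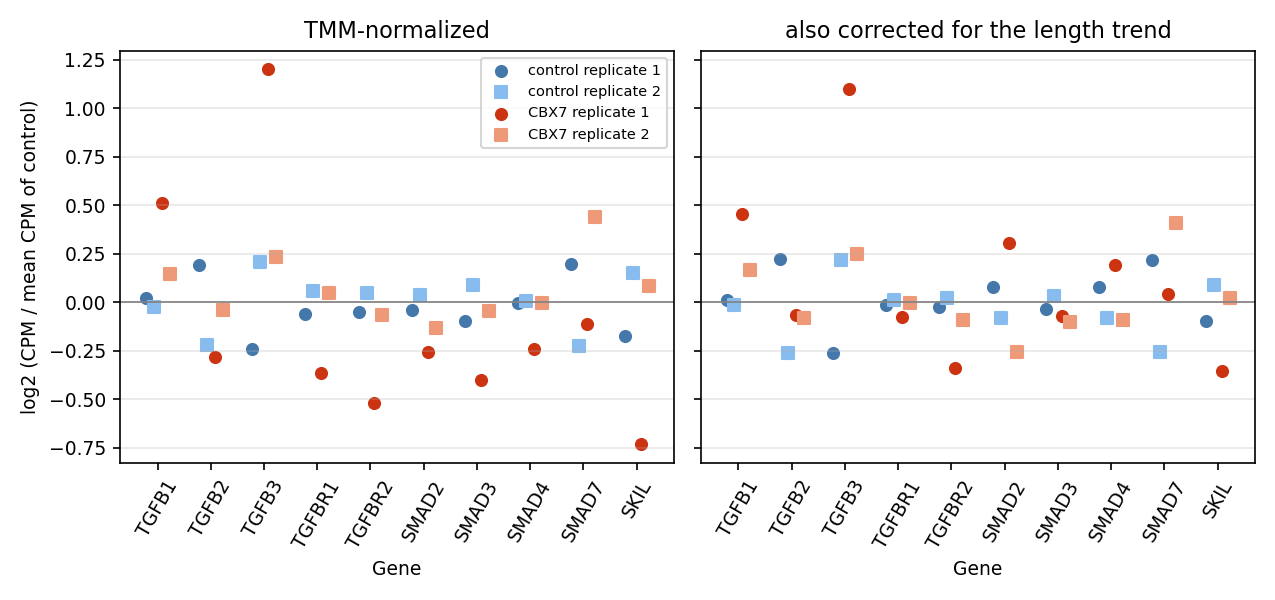
Log2 ratio of each library's CPM to the mean CPM of the control libraries for the 10 genes, after TMM normalization (left) and after an added correction of each library for its trend with gene length (right), with 1 point per library. Most CBX7 replicate 1 points below 0 on the left move towards or past 0 on the right, SMAD2 from -0.26 to 0.31, while TGFB1 and TGFB3 stay above the control libraries in both panels.

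Against the control mean, the 10 genes had a median of -0.27 on the log2 CPM scale in CBX7 replicate 1, beside 0.0023 over all genes tested. SKIL was at -0.73, TGFBR2 at -0.52, SMAD3 at -0.40 and TGFBR1 at -0.37. In CBX7 replicate 2 the same 4 genes were at 0.09, -0.06, -0.05 and 0.05. The median deposited gene length of the 10 genes was 5493 bases, against 2867 over all genes tested. Among 426 genes of nearly the deposited length of SKIL, the median in CBX7 replicate 1 was -0.39. Among 774 genes of nearly the length of TGFBR2 it was -0.18, and among 101 near SMAD2 it was -0.63. SKIL and TGFBR2 were therefore below genes of like deposited length in that library and SMAD2 above them. For SMAD2 and SMAD4, whose TPM implied shorter transcripts than the deposited length (19.2% to 25.0% and 54.2% to 64.9% of it), this comparison and the correction below rest on the deposited length. Apart from the correction, the part of the length trend in these results was not tested.

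**Figure D4:**
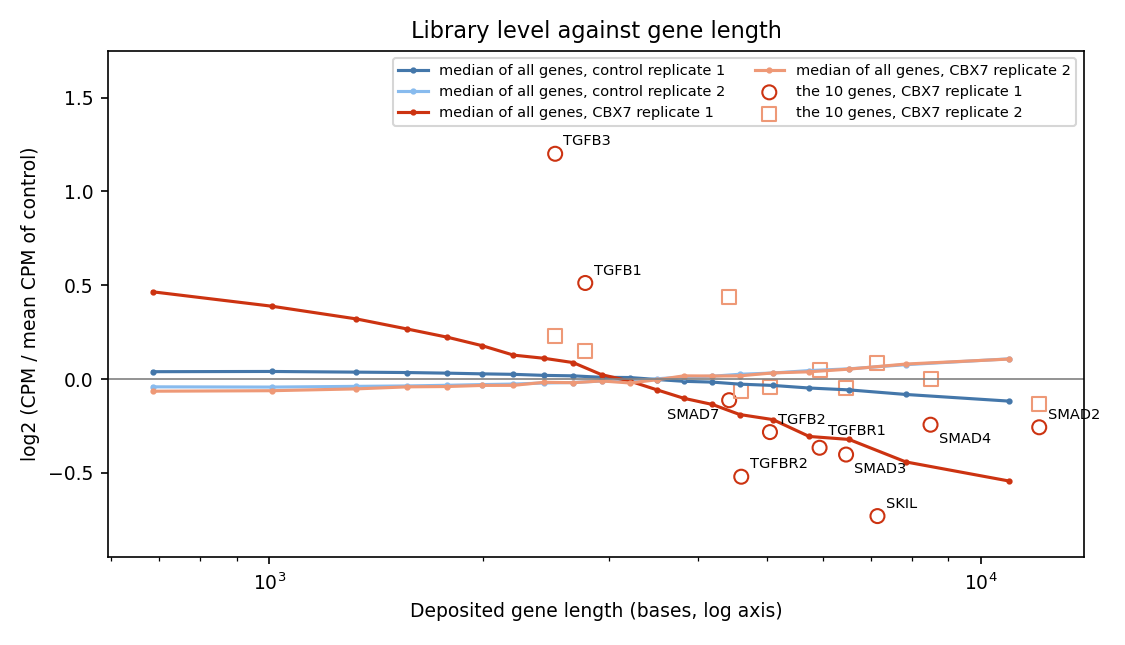
Median log2 ratio of CPM to the control mean over all genes that averaged 100 counts or more, in bins of deposited gene length (log axis), for each library (lines), with the 10 genes in the CBX7 libraries (open symbols, named for CBX7 replicate 1). The line for CBX7 replicate 1 runs from 0.47 in the shortest bin to -0.54 in the longest, and that for CBX7 replicate 2 from -0.06 to 0.11.

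When each library was corrected for its length trend, the median log2 fold change of the 10 genes went from -0.15 to 0.01, beside medians over all genes tested of 0.0017 before and -0.0049 after. TGFB1 was at a log2 fold change of 0.32 (standard error 0.12, adjusted p = 0.658 by edgeR) and TGFB3 at 0.75 (standard error 0.41). TGFBR2 was at -0.21 (standard error 0.10, adjusted p = 0.838 by edgeR) and SKIL at -0.15 (standard error 0.15). TGFBR1 was at -0.04 (standard error 0.09), TGFB2 at -0.08 (standard error 0.28) and SMAD7 at 0.24 (standard error 0.26). SMAD3 went from -0.21 to -0.09 (standard error 0.07). SMAD2 and SMAD4 turned from below 0 to 0.050 and 0.057. After the correction both CBX7 libraries were above the control libraries for TGFB1 and TGFB3 and below for TGFBR2 and SMAD3, against 18.4% (above) and 18.3% (below) of all genes. SMAD2 now overlapped. With GC content corrected as well, TGFB1 was at 0.21 (standard error 0.07, adjusted p = 0.554 by edgeR).

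Each library was then left out in turn. Without CBX7 replicate 1, no gene of the 10 passed an adjusted p of 0.05 (edgeR, with no gene of the 10 at an unadjusted p under 0.05 either), against 397 of 15343 genes (2.59%). The signs of TGFBR1, SMAD4 and SKIL then turned, to log2 fold changes of 0.052, 0.0038 and 0.093. Without CBX7 replicate 2, 6 of the 10 genes passed, against 5491 of 15452 genes (35.5%). Those genes were TGFB1 and TGFB3 (higher) and TGFBR1, TGFBR2, SMAD3 and SKIL (lower), and SMAD7 was at -0.12. Leaving out a control library turned TGFB2 to 0.060 (without control replicate 1) and SMAD7 to -0.0099 (without control replicate 2). In the first pair of these fits a single CBX7 library stands for the group and is assumed to vary as the control libraries do. The chi-square per degree of freedom between the 2 libraries of a group was 6.06 in control and 54.7 in CBX7 cells. The CBX7 libraries thus differed more than that assumption allows.

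The wider pathway was described over 104 genes in 10 lists, of which 89 could be tested. None passed an adjusted p of 0.05 in edgeR's test, while DESeq2's Wald test called 2, FN1 and INHBB, beside its 0.451% of all genes. Without the filter on low counts, edgeR called these and ITGB3, beside 265 of 26247 genes (1.01%). ITGB3 is an integrin subunit named after its values were seen (-0.78 in the filtered fit, standard error 0.42). At an unadjusted p under 0.05 there were 10 higher and 1 lower, against 3.42% (higher) and 1.32% (lower) of all genes tested. Without CBX7 replicate 1, 5 of the list genes passed the adjusted threshold (LTBP4, CCN2, CDKN1A, FN1 and INHBB), and without CBX7 replicate 2 it was 43, beside the shares of all genes given above for these fits. The median log2 fold change of the 89 genes was -0.06 and went to 0.01 after the length correction.

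Of 14 genes that release or hold latent TGF-beta, 4 were at 0.46 TPM or less in every library, namely LTBP1, LRRC32 and NRROS, which tether or bind the latent ligand, and the integrin subunit ITGB6. The integrin subunits ITGB1 (267.14 to 468.90 TPM) and ITGB5 (41.53 to 56.88 TPM) had the highest means over the 4 libraries of the 14 listed. The latent TGF-beta binding proteins LTBP4 (33.62 to 45.31 TPM), LTBP3 (34.06 to 39.70 TPM) and LTBP2 (23.46 to 44.52 TPM) and the convertase FURIN (30.22 to 40.83 TPM), which cleaves the ligand precursor, came next, and the ranges of the binding proteins overlapped each other and FURIN's. LTBP4 had 70.4 and 66.7 CPM in control cells and 83.2 and 89.6 CPM in CBX7 cells, which do not overlap. The fold change was 0.33 on the log2 scale (standard error 0.13, adjusted p = 0.951 by edgeR). ITGB1 was lower in both CBX7 libraries, at a log2 fold change of -0.31 (standard error 0.15). Over the 11 tested genes of this list, the median was -0.08. At an unadjusted p under 0.05, 1 was higher and 0 lower, against 3.42% and 1.32% of all genes tested.

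Among 13 negative regulators, all tested, those with the highest means over the 4 libraries were the SMAD-binding protein STRAP (117.43 to 136.71 TPM), the ubiquitin ligases SMURF2 (83.33 to 145.32 TPM) and NEDD4L (48.21 to 71.03 TPM), and the corepressor TGIF1 (35.58 to 54.48 TPM). Of these, TGIF1 alone had groups that did not overlap on the lower side, at a log2 fold change of -0.27 (standard error 0.13), against 14.8% of all genes. STRAP had groups that did not overlap on the higher side, at 0.14 (standard error 0.13), against 15.4% of all genes, but after the length correction CBX7 replicate 1 was below both control libraries and the groups overlapped. BAMBI, a pseudoreceptor that dampens the signal, had 0.377 and 0.572 CPM in control cells and 1.45 and 0.985 CPM in CBX7 cells, a log2 fold change of 1.36 (standard error 0.43, adjusted p = 0.863 by edgeR) from low counts. It was the only one of the 13 at an unadjusted p under 0.05, against 4.74% of all genes tested, and the list's median was -0.12. Of the 10 tested positive regulators and SMAD partners, none reached that threshold. The deubiquitinases USP15 (35.67 to 43.12 TPM) and USP11 (28.83 to 38.42 TPM), the transcription factor SP1 (11.82 to 28.86 TPM) and the kinase-activating protein TAB1 (17.87 to 19.48 TPM) had the highest means of this list over the 4 libraries. The TPM of USP15 implied a length of 13.4% to 16.1% of its deposited 14971 bases, and its place in this order rests on that. The coactivators CREBBP and EP300 had log2 fold changes of -0.27 (standard error 0.26) and -0.36 (standard error 0.35), lowest in CBX7 replicate 1.

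Transcripts known to be induced by TGF-beta did not move in 1 direction. Of the 28 tested of 30, 5 were higher and 1 lower at an unadjusted p under 0.05 (against 3.42% and 1.32% of all genes tested), 13 had fold changes above 0 and 15 below, and the median was -0.01. FN1 (fibronectin) had the highest mean over the 4 libraries, with 550.43 and 544.78 TPM in control cells and 254.51 and 311.05 TPM in CBX7 cells. Both CBX7 libraries were well below the control libraries, and the fold change on the log2 CPM scale was -1.03 (standard error 0.25, adjusted p = 0.597 by edgeR). CCN1 (323.89 to 358.94 TPM) and the tropomyosin TPM1 (130.88 to 149.80 TPM) had log2 fold changes of 0.06 and -0.02, and CCN1 was above FN1 in both CBX7 libraries.

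CCN2, encoding connective tissue growth factor, had 79.9 and 73.6 CPM in control cells and 114.3 and 101.0 CPM in CBX7 cells, which do not overlap. The fold change was 0.49 on the log2 scale (standard error 0.14, adjusted p = 0.776 by edgeR). The other 4 on the higher side at an unadjusted p under 0.05, named after their values were seen, were the cell cycle inhibitor CDKN1A (0.43), the cytokine IL11 (0.54), the collagen COL1A1 (0.71) and the repressor SNAI1 (1.66, from at most 0.994 CPM). COL1A1 had 54 to 106 expected counts in a library, and its groups overlapped in TPM. FN1 thus stood on the other side of 0 from CCN2 and CDKN1A.

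**Figure D5:**
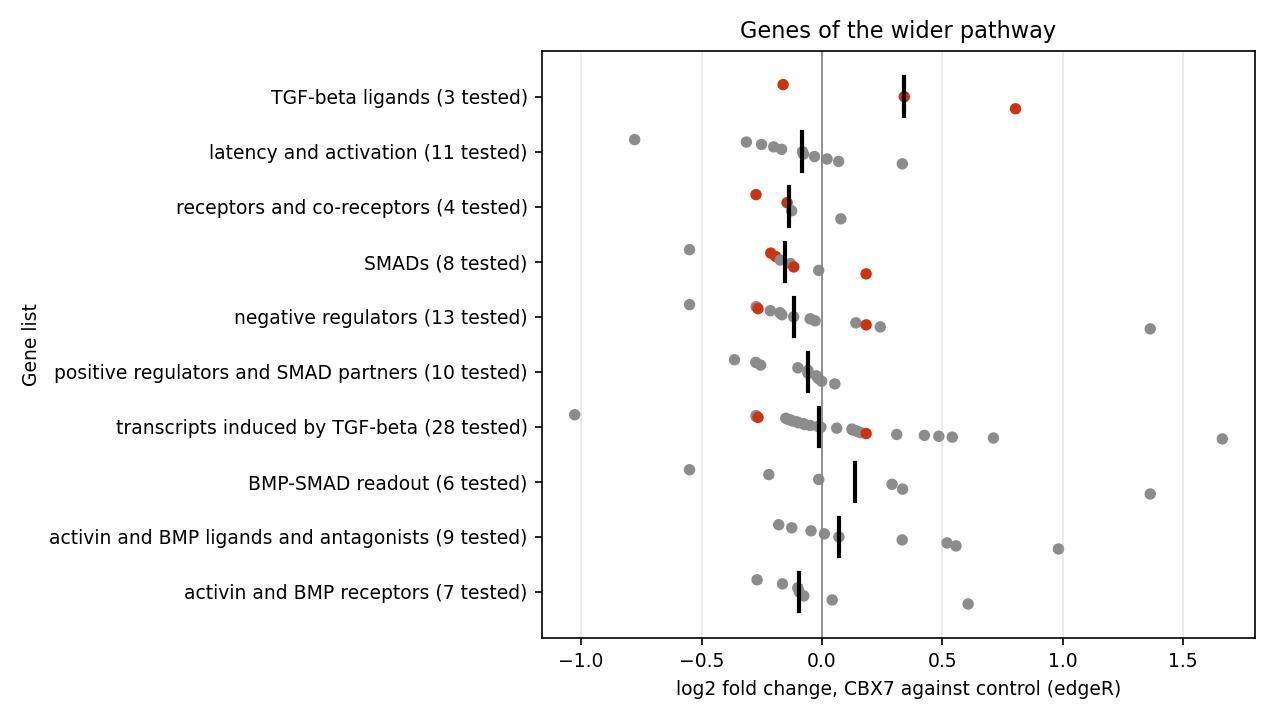
Log2 fold change (CBX7 against control, edgeR) of each tested gene in the 10 pathway lists, with the 10 genes described here in red, the others in grey and the list median as a black bar. The medians lie between -0.15 and 0.14 except for the 3 ligands (0.34), and the gene farthest to the left is FN1 at -1.03.

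In the neighbouring activin and BMP branches, INHBB, the beta-B subunit of activin, had 26.3 and 23.1 CPM in control cells and 50.6 and 46.9 CPM in CBX7 cells. Its groups were far apart for their spread, with a log2 fold change of 0.98 (standard error 0.14, adjusted p = 0.260 by edgeR). FST (follistatin), an activin antagonist, had 43.0 and 41.2 CPM in control cells and 68.1 and 52.7 CPM in CBX7 cells, a log2 fold change of 0.52 (standard error 0.17, adjusted p = 0.901 by edgeR). The antagonists NOG (28.45 to 35.12 TPM) and FSTL3 (26.74 to 33.15 TPM) and the activin subunit INHBA (15.45 to 27.29 TPM) were also present, at log2 fold changes of -0.13, 0.33 and -0.05. GDF15 (log2 fold change 0.56), a divergent member of the superfamily, was named after its values were seen. It completed the 3 of 9 tested ligands and antagonists that were higher at an unadjusted p under 0.05, against 3.42% of all genes tested. ID1 (139.86 to 167.38 TPM) and ID3 (37.91 to 45.48 TPM), which read out BMP-activated SMADs, had log2 fold changes of 0.29 (standard error 0.19) and 0.33 (standard error 0.16), and ID2 had at most 0.71 TPM. In CBX7 replicates 1 and 2, ID1 was at 0.50 and 0.05 (log2) against the control mean, and ID3 at 0.49 and 0.16. After the length correction ID1 was at 0.12 and 0.11 and ID3 at 0.10 and 0.22. None of the 7 tested activin and BMP receptors was at an unadjusted p under 0.05, against 4.74% of all genes tested. The lowest p was that of BMPR1B (log2 fold change 0.61, standard error 0.43), a receptor at 0.45 TPM or less. BMPR1A had 13.33 to 25.68 TPM, ACVR1 9.46 to 12.59 TPM, ACVR1B 4.93 to 9.88 TPM and BMPR2 4.98 to 10.90 TPM.

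Among the 88 other tested list genes, the profile of SKIL over the 4 libraries (centred log2 CPM, Euclidean distance) was nearest to those of SP1 (distance 0.05), BMPR2 (0.07) and CREBBP (0.11). All 3 have deposited lengths of 7680 bases or more and were lowest in CBX7 replicate 1, as SKIL was. SP1 had 114.0 and 142.1 CPM in control cells and 80.6 and 134.0 CPM in CBX7 cells. The nearest to SMAD7 were BMP2 (distance 0.27), SMAD1 (0.33) and CDKN2B (0.34), which were farther off. BMP2 had 0.290 to 0.545 CPM, near the pseudocount of 0.5 CPM. SMAD1 was lowest in CBX7 replicate 1, where SMAD7 was not. With 4 libraries, this likeness is a description only, and CDKN2B was the only gene of the induced list among these neighbours.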

How the data were processed

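Total RNA of T24 cells was sequenced on an Illumina HiSeq instrument in 2 control and 2 CBX7 libraries. The authors deposited 1 table with, per gene and library, an expected count (not always whole, so it was rounded) and a TPM value, with the gene length. Their own fold changes, p-values and adjusted p-values in it were not used. The submitters' processing notes name cutadapt 1.9.1, HISAT2 2.0.1, HTSeq 0.6.1, DESeq2 and hg19. The tool and annotation behind the fractional counts are not given in the sources used here. Of 60623 genes, 58516 (96.5%) matched GENCODE 29 (GRCh38), the source of coordinates and coding sequences. Promoters came from RefSeq.

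Counts were filtered with filterByExpr, scaled by TMM and tested for the effect of condition by the quasi-likelihood method of edgeR 4.0.16 (run in R 4.3.3), with Benjamini-Hochberg adjustment over 14862 genes. The standard error is the log2 fold change over the square root of F. The length correction subtracted a lowess trend (span 0.3) on log2 length from each library's log2 CPM, taken relative to the gene's mean. DESeq2 1.42.0, no filter, the replicate number as a term and each library left out were alternatives. The code was tested on simulated data. The genes, lists and tests were chosen with earlier results of these data known. From each list the 4 genes of highest mean TPM and the 2 of lowest p are named, and for SMAD7 and SKIL the 3 nearest profiles (pseudocount 0.5 CPM). One item that this rule names is not reported here. A count of 0 allows 3 counts, or 0.119 to 0.144 CPM, which covers counting error only.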

Additional observations from a re-analysis of the deposited data

How the results depend on the processing

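In every fit of all 4 libraries, 0 of the 10 genes passed an adjusted p of 0.05. Of 14862 genes, 3 passed in edgeR's test, 67 by the Wald test of DESeq2 and 5 with a length and GC trend correction (added once the data had been seen), and 265 of 26247 passed when low counts were kept (no filter). Genes of the pathway lists past that threshold numbered 0 in edgeR's test, 2 in the Wald test and 3 when low counts were kept. At an unadjusted p under 0.05, 1 of the 10 genes was counted without the filter (TGFB3, beside 5.21% of all genes), 1 after the length trend correction (TGFB1, beside 6.8%) and 1 after the length and GC correction (TGFB1, beside 7.64%).

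The libraries of the 2 groups share replicate numbers, which nothing says mark a batch. Deviations of same-numbered libraries from their group means had a correlation of 0.38 over the genes tested. With the replicate block, 361 genes passed, 3 of them in the pathway lists (ITGB3, FN1 and INHBB, none of which passes in the same fit without the block), and 1 of the 10 genes had an unadjusted p under 0.05 (TGFB1, beside 10.2% of all genes). The replicate block with length trend correction gave 270, 5 (LTBP4, CCN2, FN1, INHBB and FST) and 2 (TGFB1 and TGFBR2, beside 11.8%). The prior degrees of freedom were 3.61 in the fit without the block, infinite with it and 10.0 with both.

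SMAD2 and SMAD4 reversed to 0.050 and 0.057 (log2) after the length trend correction, to 0.029 and 0.053 with the block added and to 0.098 and 0.098 when GC was corrected too, a setting in which TGFBR1 reversed to 0.0071. The causes of these changes were not tested. In the other 73 of 80 comparisons of a gene with such an alternative, the direction and the side of the threshold were those of the first fit.

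With each library left out in turn, 45 to 5491 genes passed, 0 to 6 of the 10 genes, and 0 to 43 pathway list genes, with 0 to 8 of the 10 at an unadjusted p under 0.05. The highest count of each came without CBX7 replicate 2, where 43% of all genes had an unadjusted p under 0.05. Log2 fold changes ranged from 0.15 to 0.51 for TGFB1, -0.35 to 0.060 for TGFB2, 0.24 to 1.20 for TGFB3, -0.37 to 0.052 for TGFBR1, -0.52 to -0.06 for TGFBR2, -0.26 to -0.13 for SMAD2, -0.40 to -0.04 for SMAD3, -0.24 to 0.0038 for SMAD4, -0.12 to 0.44 for SMAD7 and -0.73 to 0.093 for SKIL. Expected counts were lowest for TGFB3 and TGFB2 (at most 55 and 58.92 in a library, standard errors 0.44 and 0.29), but SKIL, at 516 or more, had a standard error of 0.29 too.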
